A study of Mus musculus with 18 samples.

Results

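The hairpins of miR-1839, miR-1843a and miR-664 each overlap a small nucleolar RNA (snoRNA) or small Cajal body RNA (scaRNA) gene in the mouse annotation. Every listed row of these stems was taken, whichever arm it named, which gave 6 miRNAs of 758 listed: the 5p arm (left side of the hairpin) and the 3p arm (right side) of each stem. All 6 were among the 351 miRNAs that passed the filter on low values and were tested, so no member was lost. The members named for study, mmu-miR-1839-5p, mmu-miR-1839-3p, mmu-miR-1843a-3p and mmu-miR-664-3p, were selected on, or with knowledge of, their measured levels with calorie restriction against without it. Those values are therefore given here as a description with no test.

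Small RNA was sequenced from livers of wild type C57BL/6J mice, put on a regimen at 5 weeks, with livers taken at 62 weeks. The 6 groups of 3 libraries were a high-fat diet with calorie restriction (HF+CR), a high-fat diet with exercise (HF+Ex), a high-fat diet alone (HF), a low-fat diet with calorie restriction (LF+CR), a low-fat diet with exercise (LF+Ex) and a low-fat diet alone (LF). The abbreviations are the labels' own, and they are read here as the diets and regimens just named. The labels give neither the sex of the mice nor the number of mice behind a library. They do not state whether replicate libraries are different animals, so the p-values measure the spread between these libraries, which may be technical.

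Most miRNAs are cut from a long primary transcript by the Microprocessor (Drosha with DGCR8) and then by Dicer, and they repress mRNAs that pair with bases 2 to 8 of the miRNA, the seed. SnoRNAs and scaRNAs of the box H/ACA class instead guide the conversion of uridine to pseudouridine in ribosomal and spliceosomal RNAs, and in mammals they are usually cut out of introns. H/ACA RNAs fold into hairpins followed by a short tail that carries the box ACA, and in human and mouse cells some of these hairpins are also cut by Dicer into miRNA-sized RNAs. The liver functions of miR-1839, miR-1843a and miR-664 are not taken as known here.

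The mature sequences are shown because each has its own seed, so that a change in one arm is not a change in a seed family. They are printed 5′ to 3′ from RefSeq (GRCm38.p6), with the seed in capitals, and 5 of the 6 names were matched there. The name miR-1839-3p was not matched.

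miR-1839-5p: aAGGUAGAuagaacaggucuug
miR-1843a-5p: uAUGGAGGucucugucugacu
miR-1843a-3p: uCUGAUCGuucaccuccauaca
miR-664-5p: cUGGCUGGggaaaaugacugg
miR-664-3p: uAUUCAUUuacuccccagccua

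No other mature mouse sequence in the same RefSeq table shared any of these 5 seeds. The GC content was 40.9% for miR-1839-5p and miR-664-3p, 45.5% for miR-1843a-3p, 47.6% for miR-1843a-5p and 57.1% for miR-664-5p, against a median of 47.8% over the listed miRNAs found in the table.

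The hosts are shown as DNA on their own strand, because the annotated arms lie inside them. Capitals mark the annotated miRNA arms, the genome is GRCm38 and the host boundaries are those of GENCODE M21.

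Host of miR-1839, chr7:81529855-81529981, plus strand: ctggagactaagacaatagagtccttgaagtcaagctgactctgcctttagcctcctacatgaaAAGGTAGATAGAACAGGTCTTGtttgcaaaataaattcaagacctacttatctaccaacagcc
Host of miR-1843a, Scarna3b, chr12:80391613-80391751, minus strand: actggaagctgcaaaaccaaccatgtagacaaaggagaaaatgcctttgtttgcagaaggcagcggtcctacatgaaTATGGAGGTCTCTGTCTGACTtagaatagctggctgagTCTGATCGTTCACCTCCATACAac
Host of miR-664, Snora36b, chr1:185242907-185243038, plus strand: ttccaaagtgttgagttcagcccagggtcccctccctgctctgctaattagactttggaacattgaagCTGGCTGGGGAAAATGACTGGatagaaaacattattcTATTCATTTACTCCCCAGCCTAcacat

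The Mir1839 hairpin (chr7:81529916-81529988) lies in an exon of the long noncoding RNA gene 2900076A07Rik, and 66 of its 73 bases lie within a scaRNA gene of 127 bases that GENCODE also names Mir1839. The Mir1843a hairpin (chr12:80391613-80391677) lies in an intron of Dcaf5, with all 65 bases inside the 139 bases of the scaRNA Scarna3b. The Mir664 hairpin (chr1:185242975-185243043) lies in an intron of Rab3gap2, and 64 of its 69 bases lie inside the 132 bases of the snoRNA Snora36b. In all 3 hosts the hairpin covers the 3′ side of the host, as the map of arms on the host RNAs shows. The letters ACA, searched on the transcribed strand, stood within the last 6 bases of all 3 hosts, as they did in 46.5% of the 1558 annotated mouse snoRNA and scaRNA transcripts.

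**Figure D1:**
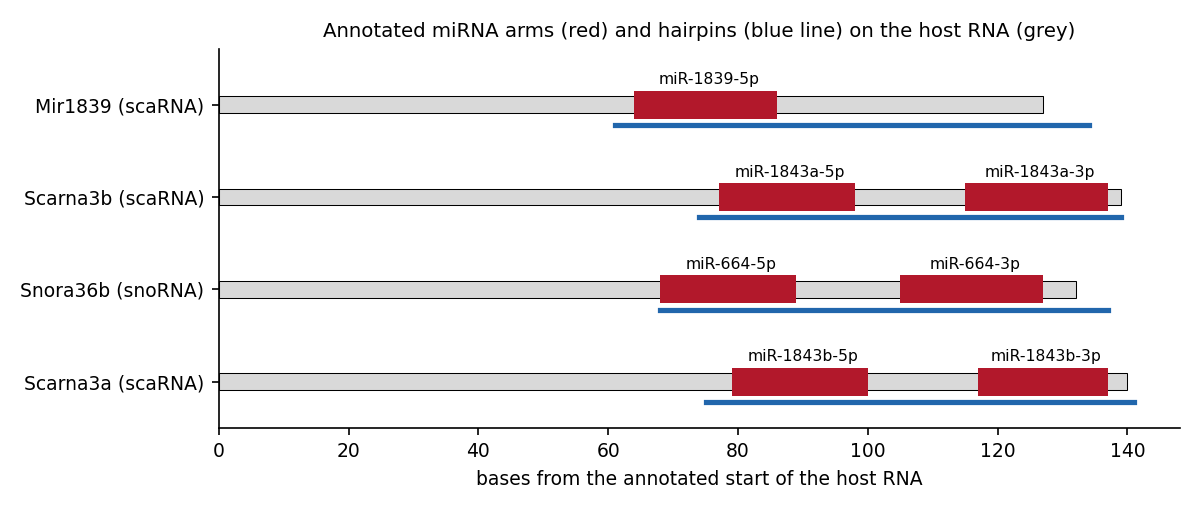
Position of the annotated miRNA arms (red boxes) and RefSeq hairpins (blue lines) on the host RNAs (grey bars), in bases from the annotated start of each host. In Scarna3b the miR-1843a arms cover bases 78 to 98 and 116 to 137 of 139, and in Snora36b the miR-664 arms cover bases 69 to 89 and 106 to 127 of 132. miR-1839-5p covers bases 65 to 86 of 127, and Scarna3a, host of the paralog miR-1843b, is drawn for comparison.

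A read of an arm's length from one of these loci carries the same letters whether it was cut as a miRNA or is a piece of the host RNA. The deposited values are RPM for each miRNA name (its reads, scaled to a common library total), and they cannot tell these origins apart. In bulk liver, fewer cells of a type and less RNA per cell cannot be told apart either. A read is taken to span a whole arm, whatever its origin, so RPM was compared between miRNAs without division by length.

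The steps between the deposited values imply 2.38 to 10.5 megareads on listed miRNAs per library, lowest in an HF+Ex library and highest in an LF+Ex library. The mean was 3.95 ± 1.37 megareads in HF+CR, 6.11 ± 3.31 in HF+Ex, 5.56 ± 1.31 in HF, 6.33 ± 1.30 in LF+CR, 8.54 ± 1.74 in LF+Ex and 7.78 ± 0.988 in LF (SD, n = 3 each). The 5 hepatocyte miRNAs of a marker list, miR-122-5p among them, summed to between 297173 and 408641 RPM in every library. The 10 listed entries of a list that resemble fragments of other RNAs, taken as a sign of RNA quality, summed to 136 to 341 RPM in HF+CR, 38.2 to 444 in HF+Ex, 48.2 to 163 in HF, 41.1 to 59.0 in LF+CR, 27.3 to 59.1 in LF+Ex and 39.2 to 41.9 in LF. Pancreatic markers were high in 1 LF+CR library, at 348 RPM against 4.25 and 13.3 RPM in the others of that group.

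The 6 arms spanned levels from 4.85 to 330.6 RPM, taken as means over the 18 libraries. miR-1839-5p averaged 330.6 RPM and ranked 100 of the 758 miRNAs, and miR-1843a-5p averaged 261.2 RPM and ranked 109. The other 4 arms were far lower: miR-1843a-3p averaged 33.2 RPM (rank 205), miR-664-5p 17.2 RPM (rank 237), miR-664-3p 6.95 RPM (rank 298) and miR-1839-3p 4.85 RPM (rank 323). In reads, miR-1839-5p was counted 944 to 4509 times per library and miR-1843a-5p at most 2569 times, while miR-1839-3p rested on 9 to 59 reads and miR-664-3p on 9 to 88. At 9 reads, the lowest level of miR-1839-3p, 1.42 RPM in LF+CR, had an exact 95% Poisson interval of 0.648 to 2.69 RPM, which covers counting error only.

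**Figure D2:**
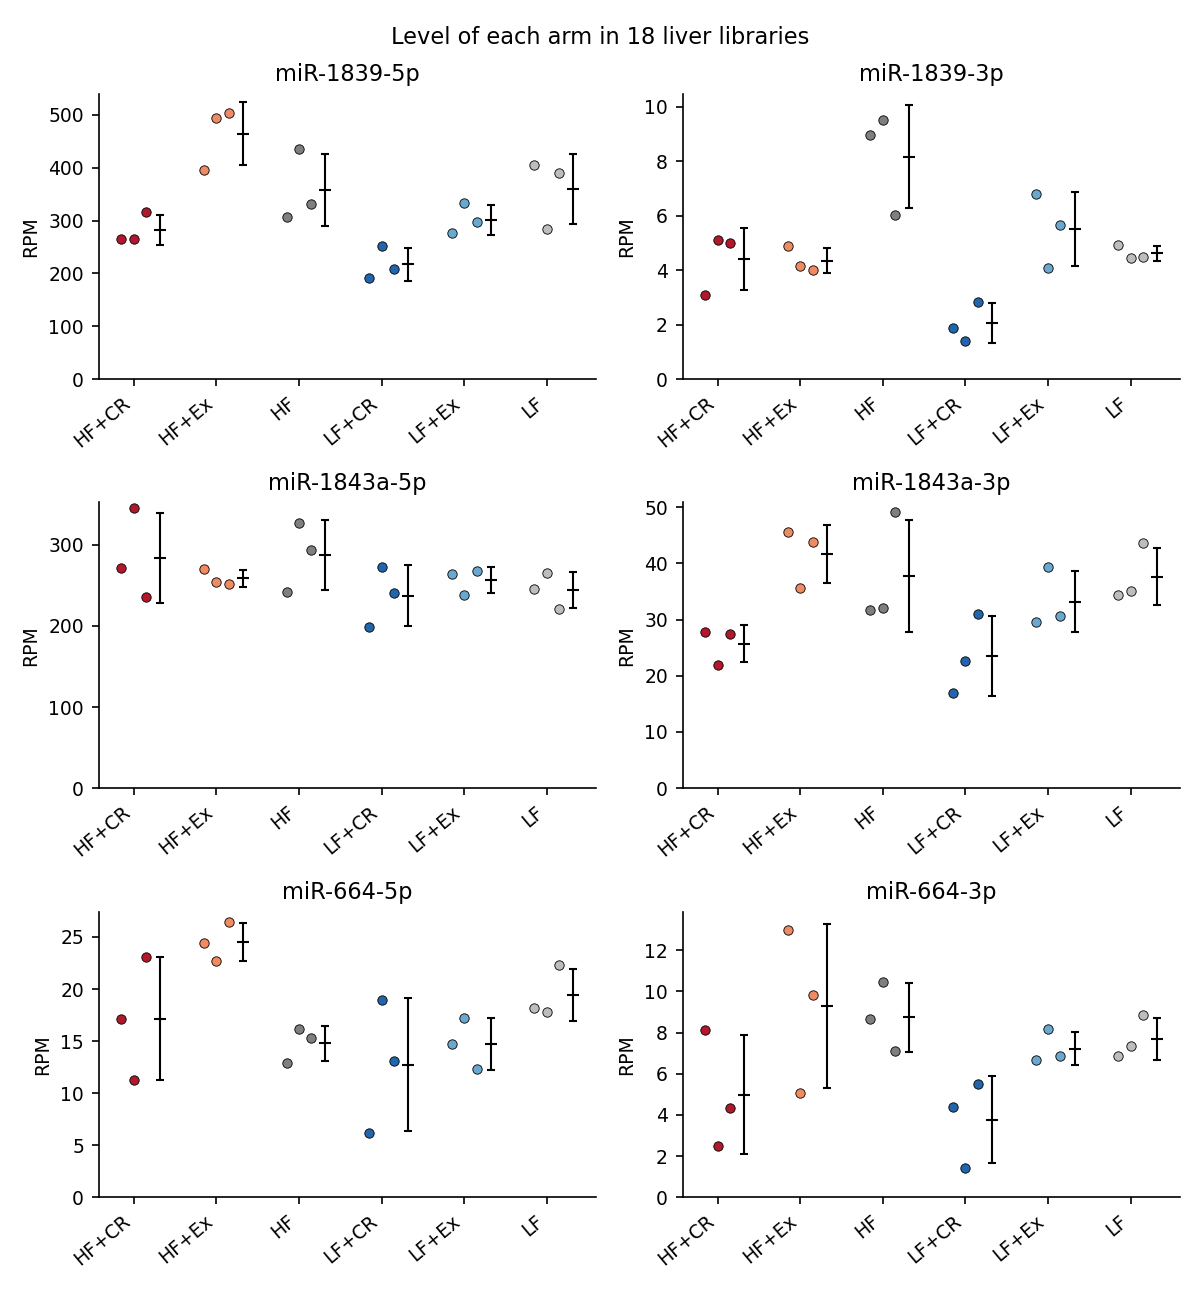
Level of each arm in RPM (linear axes that start at 0) in the 18 liver libraries, by group. Points are libraries, and the horizontal tick with its bar is the group mean ± SD (n = 3). LF+CR has the lowest mean of the 6 groups in every panel, and HF+Ex has the highest mean of miR-1839-5p, miR-1843a-3p, miR-664-5p and miR-664-3p.

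Across the 6 groups the order of the mean levels was mostly within the spread. Of 30 pairs of neighbours in these orders, taken over the 6 arms, 6 differed by more than the larger of their SDs and 4 had ranges of libraries that did not overlap. LF+CR stood last for all 6 arms, and HF+Ex stood first for 4 of them. The 4 pairs that did not overlap were HF+CR over LF+CR for miR-1839-5p, HF+Ex over LF+CR for miR-1839-3p, LF+Ex over HF+CR for miR-1843a-3p and HF+Ex over LF for miR-664-5p. All but the last include a CR group, and the CR values of those arms were known when they were chosen. How many such pairs other tested miRNAs have was not counted, so these counts and orders are not read as unusual.

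miR-1839-5p was at 191, 252 and 209 RPM in the LF+CR libraries, against 406, 284 and 391 RPM in the LF libraries. Every LF+CR library lay below every LF library. On the high-fat diet it was at 266, 265 and 316 RPM in HF+CR, against 307, 435 and 332 RPM in HF. Here the highest HF+CR library exceeded the lowest HF library, so the groups overlapped. The means were 282 ± 28.9 RPM in HF+CR, 464 ± 59.3 in HF+Ex, 358 ± 67.7 in HF, 217 ± 31.6 in LF+CR, 302 ± 28.6 in LF+Ex and 360 ± 66.5 in LF (SD, n = 3 each).

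miR-1839-3p, the rare arm of the same hairpin, was at 1.89, 1.42 and 2.85 RPM in LF+CR, against 4.92, 4.45 and 4.47 RPM in LF. In HF+CR it was at 3.08, 5.11 and 5.01 RPM, against 8.96, 9.52 and 6.01 RPM in HF. All LF+CR libraries lay below all LF libraries, and all HF+CR libraries below all HF libraries. The means were 4.40 ± 1.14 RPM in HF+CR, 4.35 ± 0.465 in HF+Ex, 8.16 ± 1.88 in HF, 2.05 ± 0.728 in LF+CR, 5.51 ± 1.37 in LF+Ex and 4.62 ± 0.268 in LF, so HF was highest.

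miR-1843a-3p was at 16.9, 22.7 and 30.9 RPM in LF+CR, against 34.3, 35.0 and 43.5 RPM in LF, and at 27.7, 21.9 and 27.4 RPM in HF+CR, against 31.7, 32.1 and 49.2 RPM in HF. It too had every LF+CR library below every LF library and every HF+CR library below every HF library. Its partner miR-1843a-5p was at 198, 273 and 241 RPM in LF+CR, against 246, 265 and 221 RPM in LF. The highest and the lowest of these 6 values were both LF+CR libraries, and miR-1843a-5p varied least of the 6 arms, 1.74-fold between its extremes over the 18 libraries. On the high-fat diet miR-1843a-5p was at 271, 345 and 236 RPM in HF+CR, against 242, 326 and 293 RPM in HF, again with overlap. The exercise groups lay inside these ranges, at 259 ± 9.95 RPM in HF+Ex and 256 ± 16.2 RPM in LF+Ex (SD, n = 3 each). For miR-1843a-3p they were at 41.6 ± 5.24 RPM in HF+Ex and 33.2 ± 5.39 RPM in LF+Ex.

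miR-664-3p was at 4.41, 1.42 and 5.50 RPM in LF+CR, against 6.87, 7.37 and 8.84 RPM in LF. The LF+CR libraries were all below the LF libraries, the lowest of them with 9 reads. In HF+CR miR-664-3p was at 8.13, 2.47 and 4.35 RPM, against 8.66, 10.5 and 7.09 RPM in HF, with 1 HF+CR library inside the HF range. miR-664-5p was at 6.17, 18.9 and 13.1 RPM in LF+CR, against 18.1, 17.8 and 22.3 RPM in LF, and the groups overlapped through 1 LF+CR library. It was at 17.1, 11.3 and 23.1 RPM in HF+CR, against 12.9, 16.2 and 15.3 RPM in HF, where the HF range lay inside that of HF+CR. The exercise groups had 9.30 ± 3.99 RPM of miR-664-3p in HF+Ex and 7.22 ± 0.811 RPM in LF+Ex (SD, n = 3 each).

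In all, 4 of the 6 arms had every LF+CR library below every LF library, where 24.8% of the 351 tested miRNAs did, and 0 of the 6 had every one above, where 3.99% did. On the high-fat diet 2 of the 6 had every HF+CR library below every HF library, where 9.4% of the tested miRNAs did, and 0 of the 6 had every one above, where 5.13% did. These comparisons chose the miRNAs, so nothing is read from the counts. As log2(RPM + 1) differences, LF+CR minus LF was -0.98 (SE 0.40) for miR-664-3p, -0.91 (SE 0.27) for miR-1839-3p, -0.72 (SE 0.19) for miR-1839-5p, -0.69 (SE 0.23) for miR-1843a-3p, -0.69 (SE 0.31) for miR-664-5p and -0.05 (SE 0.18) for miR-1843a-5p. The median over these 6 was -0.71, beside -0.32 over all tested miRNAs. Values of miR-664 rested on single libraries: without LF+CR replicate 2, miR-664-3p was at -0.55, and without LF+CR replicate 1, miR-664-5p was at -0.28. HF+CR minus HF ranged between -0.80 for miR-664-3p and 0.15 for miR-664-5p, with a median of -0.42 beside -0.05 over all tested miRNAs. Here, miR-664-3p was at -0.47 without HF+CR replicate 2, and miR-664-5p lay between -0.08 without HF+CR replicate 3 and 0.41 without HF+CR replicate 2. miR-1839-5p was at -0.33, and at -0.18 without HF replicate 2, and miR-1843a-3p was at -0.51, and at -0.31 without HF replicate 3.

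Rescaling the libraries by median-of-ratios size factors moved the median of all tested miRNAs in LF+CR minus LF by 0.33 on the log2 scale. After it, miR-664-3p was at -0.71, miR-1839-3p at -0.67, miR-1839-5p at -0.38, miR-664-5p at -0.37 and miR-1843a-3p at -0.36, and miR-1843a-5p was at 0.29. The median of all tested miRNAs was then 0.02, with 5 of the 6 arms below it and miR-1843a-5p above it. This comparison is among those that chose the miRNAs, so nothing is read from that count. Averaged over both diets, CR minus no CR was -0.89 (SE 0.28) for miR-664-3p and -0.83 (SE 0.19) for miR-1839-3p before rescaling and -0.73 and -0.69 after it. For miR-1843a-3p it was -0.60 (SE 0.16) before and -0.41 after, and for miR-1839-5p -0.53 (SE 0.13) and -0.32. For miR-664-5p it was -0.27 (SE 0.22) before and -0.08 after, and for miR-1843a-5p -0.04 (SE 0.12) and 0.16. The median of all tested miRNAs was -0.17 before and 0.03 after. A list of leukocyte and Kupffer cell miRNAs, 6 of 8 listed and none at 0 in any library, summed to 560 to 749 RPM in LF+CR, against 745 to 2789 RPM in LF. In HF+CR it summed to 680 to 3087 RPM, against 1653 to 2219 RPM in HF. The part of these cells in the differences was not tested.

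Comparisons that did not choose the miRNAs were tested with limma over all 351 miRNAs, with Benjamini-Hochberg adjustment. Of these, only the high-fat against the low-fat diet under exercise shares no library with the CR comparisons. There, 0 of the 6 arms passed adjusted p = 0.05, where 8.26% of the tested miRNAs did, and 2 of the 6 had an unadjusted p under 0.05, as did 102 of the 351. With limma's voom on the implied reads, 1 of the 6 passed here, as did 41 of the 351, and 0 of the 6 passed in each of the other 4 tested comparisons.

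miR-1839-5p was at 396, 494 and 503 RPM in HF+Ex, against 276, 333 and 296 RPM in LF+Ex. All HF+Ex libraries lay above all LF+Ex libraries, with a log2 difference of 0.62 (SE 0.19, 95% interval 0.21 to 1.02, limma adjusted p = 0.0525). miR-664-5p was at 24.4, 22.7 and 26.4 RPM in HF+Ex, against 14.7, 17.2 and 12.3 RPM in LF+Ex, again with no overlap (0.71, SE 0.31, adjusted p = 0.143). These were 2 of 6 arms with every HF+Ex library above every LF+Ex library, beside 32.5% of the tested miRNAs.

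The other 4 arms lay closer to 0 in this comparison. miR-1843a-3p was at 0.32 (adjusted p = 0.394), miR-664-3p at 0.25, miR-1843a-5p at 0.01 and miR-1839-3p at -0.27 (adjusted p = 0.532). Rescaling lowered the median of all tested miRNAs by 0.22 here, and left miR-1839-5p at 0.39 (adjusted p = 0.154) and miR-664-5p at 0.50 (adjusted p = 0.288), with miR-1843a-5p at -0.21. With only the HF+Ex and LF+Ex libraries in the fit, both miR-1839-5p and miR-664-5p had an adjusted p of 0.0449 in limma, in a fit that called 59 of the 351, and voom gave 0.0429 for miR-1839-5p. The leukocyte list summed to 2228 to 3482 RPM in HF+Ex, against 800 to 1072 RPM in LF+Ex, with 3 of its 6 tested members called higher. Depth also differed, as given above, and the part of either in the values of the arms was not tested.

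**Figure D3:**
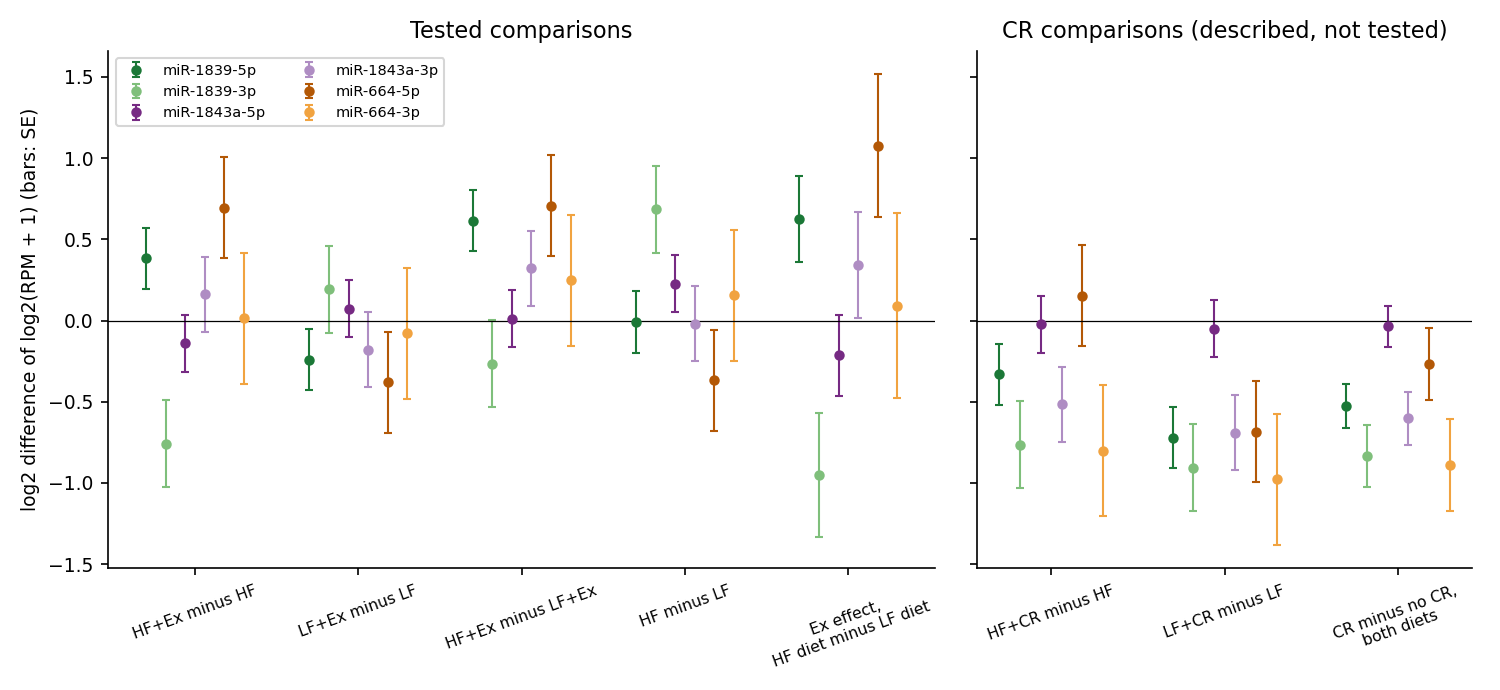
Difference between groups in log2(RPM + 1) for each of the 6 arms, first group minus second, with bars of ± 1 SE. On the left are the 5 tested comparisons, in which 0 of 6 arms passed adjusted p = 0.05. On the right are the CR comparisons, given as a description. There, LF+CR minus LF lies below 0 for all 6 arms before rescaling, as for 75.2% of the 351 tested miRNAs.

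In HF+Ex minus HF the arms of miR-1839 had opposite signs, and neither passed the test. The HF libraries are also the baseline of HF+CR, whose values were known when both arms were chosen. miR-1839-3p was at 4.88, 4.14 and 4.02 RPM in HF+Ex, against 8.96, 9.52 and 6.01 RPM in HF, so that all HF+Ex libraries lay below HF (-0.76, SE 0.27, limma adjusted p = 0.356). miR-1839-5p averaged 464 ± 59.3 RPM in HF+Ex and 358 ± 67.7 RPM in HF (SD, n = 3 each), with overlap (0.38, SE 0.19, adjusted p = 0.600). None of the 6 arms passed, where 0.855% of the tested miRNAs did, and 2 had an unadjusted p under 0.05, as did 30 of the 351.

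miR-664-5p was the other of these 2. It was at 24.4, 22.7 and 26.4 RPM in HF+Ex, against 12.9, 16.2 and 15.3 RPM in HF, with no overlap (0.70, SE 0.31, adjusted p = 0.525). Of the tested miRNAs, 9.69% had every HF+Ex library above every HF library and 8.26% had every one below. The remaining arms lay between -0.14 for miR-1843a-5p and 0.16 for miR-1843a-3p.

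On the low-fat diet exercise moved no arm past the test. 0 of the 6 arms and 0% of the 351 tested miRNAs had a limma adjusted p under 0.05, none of the arms and 41 miRNAs had an unadjusted p under 0.05, and voom called 1 miRNA, which was none of the 6 arms. miR-664-5p was at 14.7, 17.2 and 12.3 RPM in LF+Ex, against 18.1, 17.8 and 22.3 RPM in LF, every LF+Ex library being lower, as for 15.1% of the tested miRNAs. No arm had every LF+Ex library higher, as 6.27% of the tested miRNAs had. The log2 difference of miR-664-5p was -0.38 (SE 0.31, adjusted p = 0.567), and the other arms lay between -0.24 for miR-1839-5p and 0.19 for miR-1839-3p. Rescaling raised the median of all tested miRNAs by 0.17 here, and turned miR-664-3p to 0.08, where it was at -0.08 as deposited.

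The difference in the exercise effect between the diets was tested as an interaction. 0 of the 6 arms passed, where 0.855% of the tested miRNAs did, although 3 had an unadjusted p under 0.05, as did 58 of the 351. The log2 effect was higher on the high-fat diet by 1.08 (SE 0.44, adjusted p = 0.216) for miR-664-5p and by 0.62 (SE 0.27, adjusted p = 0.227) for miR-1839-5p. For miR-1839-3p the effect had opposite signs, at -0.76 on the high-fat diet and 0.19 on the low-fat diet, a difference of -0.95 (SE 0.38, limma adjusted p = 0.216). The 95% intervals were 0.14 to 2.01 for miR-664-5p, 0.06 to 1.19 for miR-1839-5p and -1.76 to -0.14 for miR-1839-3p. Rescaling lowered the median of all tested miRNAs by 0.16 and left these 3 arms at 0.92, 0.46 and -1.08. With only the 4 groups concerned in the fit, miR-664-5p had an adjusted p of 0.0476 in limma, in a fit that called 12 of the 351.

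Without CR or exercise, 2 of the arms had nearly equal means on the 2 diets. miR-1839-5p averaged 358 ± 67.7 RPM in HF, against 360 ± 66.5 RPM in LF, and miR-1843a-3p averaged 37.7 ± 9.95 RPM in HF, against 37.6 ± 5.12 RPM in LF (SD, n = 3 each). Their log2 differences were -0.01 (95% interval -0.41 to 0.39) and -0.02 (-0.51 to 0.47). miR-1843a-5p averaged 287 ± 42.8 RPM in HF, against 244 ± 22.3 RPM in LF, with overlap (0.23, SE 0.18, limma adjusted p = 0.603). miR-1839-3p was higher in all 3 HF libraries than in any LF library, at 0.69 (SE 0.27, limma adjusted p = 0.341), as 10.5% of the tested miRNAs were. miR-664-5p was lower in all 3 HF libraries, at -0.37 (SE 0.31, adjusted p = 0.606), as 8.55% were. None of the 6 arms passed, where 0.285% of the tested miRNAs did, and only miR-1839-3p had an unadjusted p under 0.05, as did 41 of the 351. These HF and LF libraries are also the ones that the CR and exercise groups were set against.

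The arms of a hairpin are cut from the same precursor, and usually the more abundant one is loaded into the silencing complex while its partner is degraded. The hairpins are shown to make the arms' pairing visible, from RefSeq (GRCm38.p6), with annotated arms in capitals and the rest of the stem and loop in lower case.

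Mir1839: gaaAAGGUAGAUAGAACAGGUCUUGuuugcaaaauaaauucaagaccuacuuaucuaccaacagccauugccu
Mir1843a: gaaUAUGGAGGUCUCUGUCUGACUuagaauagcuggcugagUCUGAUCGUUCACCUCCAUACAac
Mir664: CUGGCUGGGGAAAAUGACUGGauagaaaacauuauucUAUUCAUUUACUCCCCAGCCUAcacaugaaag

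The 5p arm exceeded the 3p arm in every library at all 3 hairpins, by very different factors. The ratio of 5p to 3p RPM ranged over the 18 libraries between 34.3 and 178 for miR-1839, between 5.07 and 15.8 for miR-1843a and between 1.40 and 13.3 for miR-664. The medians were 77.2, 7.70 and 2.29, in that order of hairpins. As the plot of arm ratios shows, the ratio was not fixed within a hairpin.

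For miR-1839 the ratio was 109 ± 23.9 in HF+Ex, against 45.0 ± 10.4 in HF (SD, n = 3 each), and the lowest HF+Ex library, at 81.2, lay above the highest HF library, at 55.2. It was 117 ± 54.1 in LF+CR, against 77.9 ± 12.4 in LF, with overlap, and 67.0 ± 17.5 in HF+CR. For miR-1843a the ratio was 10.5 ± 2.37 in LF+CR, against 6.60 ± 1.34 in LF, the lowest LF+CR library at 7.79 being above the highest LF library at 7.58. It was 11.4 ± 3.85 in HF+CR, against 7.91 ± 2.12 in HF, with overlap. Of miR-1843a and miR-664 only the 3p arm was named with its CR values known, and of miR-1839 both arms were. Nothing is therefore read from the ratios under CR.

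For miR-664 the ratio was 3.01 ± 1.33 in HF+Ex, against 1.73 ± 0.367 in HF. In LF+CR it spread between 1.40 and 13.3, the high value being the library with 9 reads of miR-664-3p, against 2.53 ± 0.113 in LF. The ratios are given as a description and were not tested. How many other hairpins have ratios that separate between these groups was not counted, so a gap without overlap is not read as unusual. Ratios that rest on few reads of the 3p arm are imprecise.

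**Figure D4:**
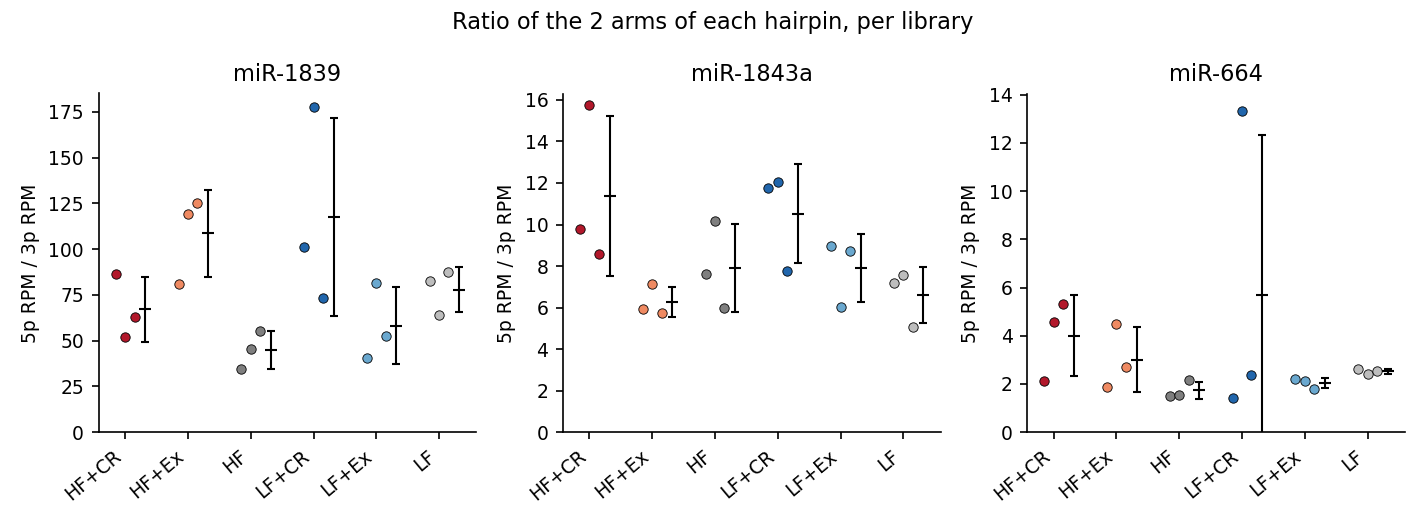
Ratio of 5p to 3p RPM in each library (points) with the group mean ± SD (n = 3), 1 panel per hairpin, on linear axes that start at 0. For miR-1839 the HF+Ex libraries lie above the HF libraries without overlap, and for miR-664 1 LF+CR library at 13.3 sets the spread of its group, whose lower bar ends at the axis. The ratios were not tested, and no share of other hairpins was counted.

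miR-1843a has a close paralog, miR-1843b, whose hairpin (chr1:159340358-159340423, GRCm38, plus strand) lies in an intron of Cop1, with 65 of its 66 bases inside the scaRNA Scarna3a. Its arms are printed to show how little tells the paralogs apart, again with bases 2 to 8 in capitals.

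miR-1843b-5p: aUGGAGGUcucugucugacuu
miR-1843b-3p: cCGAUCGUuccccuccauac

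The 5p arms share 20 identical bases, but miR-1843b-5p starts 1 base later, so bases 2 to 8 of these arms differ. The 3p arms match at 18 of 20 aligned bases and the hairpins at 59 of 65. How reads that match both 5p arms were assigned is not given in the sources used here, so the split of these reads is uncertain.

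The ratio of miR-1843a-5p to miR-1843b-5p ranged between 2.04 and 3.10 over the 18 libraries. It was 3.10, 2.68 and 2.60 in the HF+CR libraries, against 2.31, 2.26 and 2.46 in the HF libraries, and the HF+CR libraries lay above all the others, of which the highest was an HF+Ex library at 2.57. It was 2.27 ± 0.206 in LF+CR, against 2.31 ± 0.0628 in LF, with overlap (SD, n = 3 each). The ratio of the 3p arms was 1.76, 2.53 and 3.79 in the LF+CR libraries, against 5.89, 5.14 and 5.78 in the LF libraries, with no overlap. miR-1843b-3p itself averaged 8.90 ± 0.706 RPM in LF+CR, against 6.72 ± 0.852 RPM in LF (SD, n = 3 each). Its mean was thus higher in the group in which that of miR-1843a-3p was lower. The log2 difference of miR-1843b-3p was 0.36 (SE 0.31), on 43 to 76 reads in LF+CR and 45 to 69 in LF. In HF+CR the 3p ratio was 3.96 ± 1.48, against 5.53 ± 1.20 in HF, with overlap. The ratios use the measure by which miR-1843a-3p was chosen, and no test was made of them. How many other pairs of miRNAs have ratios that separate was not counted, so a gap without overlap is not read as unusual.

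**Figure D5:**
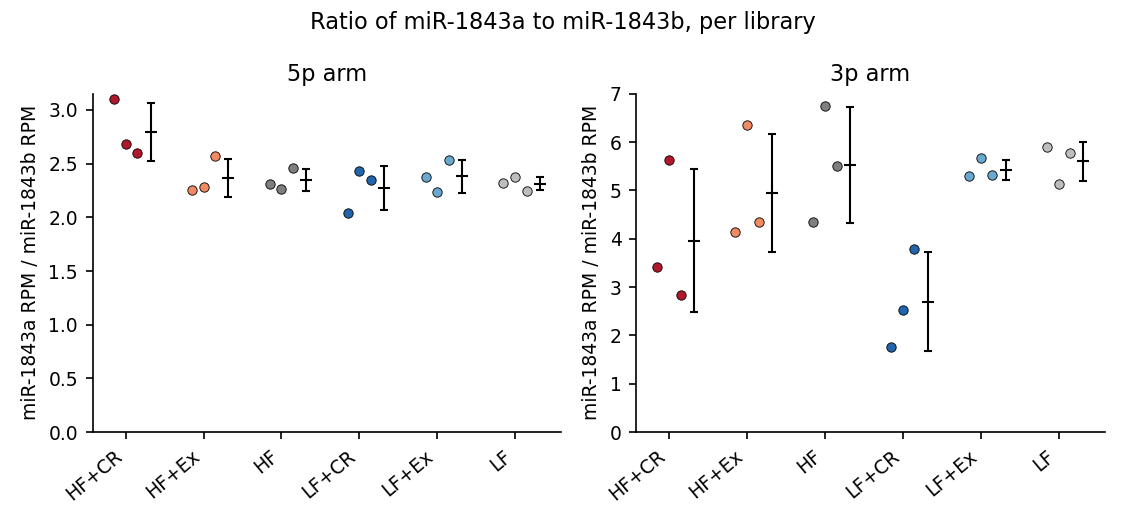
Ratio of miR-1843a to miR-1843b RPM in each library (points) with the group mean ± SD (n = 3), for the 5p arm and the 3p arm, on linear axes that start at 0. The 5p ratio lies between 2.04 and 3.10 and is highest in the 3 HF+CR libraries, and the 3p ratio in LF+CR lies below that in LF without overlap. The ratios were not tested, and no share of other pairs was counted.

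Other miRNAs whose hairpins overlap a snoRNA or scaRNA of any class served as a comparison. Of 1005 RefSeq mouse hairpins, 14 overlapped an annotated snoRNA or scaRNA on the same strand by at least 20 bases, and 8 of these 14 had listed arms. The hosts were not sorted by class and are not all alike. The Mir5121 hairpin has 30 of its 74 bases inside the snoRNA Snord33, of 84 bases, and the host of miR-677 has 72 bases. Apart from miR-1839, miR-1843a and miR-664, 6 arms of miR-1843b, miR-3068, miR-5121 and miR-677 were tested. In LF+CR minus LF their median log2 difference was -0.07, with 4 of 6 below 0, beside -0.71 with 6 of 6 below 0 for the arms of miR-1839, miR-1843a and miR-664. In HF+CR minus HF it was 0.11 with 2 of 6 below 0, beside -0.42 with 5 of 6. Of all 351 tested miRNAs, 75.2% lay below 0 in LF+CR minus LF and 56.7% in HF+CR minus HF. In the 5 tested comparisons 0 of the 6 arms of the other hairpins passed, as for the 6 arms of miR-1839, miR-1843a and miR-664. No difference between these sets was tested, because 4 of the 6 arms of miR-1839, miR-1843a and miR-664 were chosen with their values under CR known.

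A list of 9 miRNAs described as made without the Microprocessor had 6 members listed and 2 tested, miR-320-3p and miR-484. Neither passed in any of the 5 tested comparisons. miR-484 in HF+Ex against LF+Ex was closest, at 0.61 (SE 0.20, limma adjusted p = 0.0663). There, miR-320-3p was at 0.22 (SE 0.17, limma adjusted p = 0.411), and the median of all tested miRNAs was 0.22. In LF+CR minus LF, miR-320-3p was at -0.26 and miR-484 at -0.50. Whether the arms of miR-1839, miR-1843a and miR-664 are made without the Microprocessor was not tested.

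The miRNAs whose levels over the 18 libraries were most like those of the 6 arms, by the mean of Pearson's r of log2(RPM + 1) with each of them, were miR-574-5p (mean r 0.65), miR-674-5p (0.63), miR-365-2-5p (0.63), miR-423-3p (0.62) and miR-423-5p (0.62). With group means subtracted, the mean r of the 5 most alike fell to between 0.32 and 0.34, and miR-574-5p, miR-674-5p and miR-423-3p were again among them. The means hide a spread, since r of miR-574-5p with single arms lay between 0.15 and 0.82 before subtraction. Between the 5p and 3p arms of the same hairpin, r was 0.46 for miR-1839, 0.07 for miR-1843a and 0.30 for miR-664. With group means subtracted it was -0.10, -0.04 and -0.07. These values are descriptions, since libraries of a group share their treatment and each library its depth.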

How the data were processed

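Small RNA was measured in 18 libraries of mouse liver. The deposited values are RPM per miRNA name, made by the authors. Per the submitters' processing notes, reads were placed on mm10. No aligner, trimming, mismatch setting or miRNA annotation is named in the sources used here. Listed RPM summed to 96.4% to 97.1% of the full RPM scale in each library. Every value was a whole multiple (within 0.001 reads) of a step that made the smallest listed value 2 reads, which gave the implied reads. The series table and the sample files held the same values.

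log2(RPM + 1) of miRNAs with at least 5 RPM in at least 3 libraries was fitted with limma 3.58.1 in R 4.3.3 (1 coefficient per group, all 18 libraries, trend in eBayes, two-sided, Benjamini-Hochberg over 351). A call is an adjusted p under 0.05. Fold changes on this scale understate those of low miRNAs. Members, lists and comparisons were chosen with earlier results of these data known. All rows of the 3 stems, those of miR-1843b, and the 5 miRNAs with the highest mean r were named. The fit was tested on simulated data. RefSeq names matched 606 of 758 listed miRNAs. Epithelial, neuronal and erythroid marker lists are among the values given in the closing section.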

Additional observations from a re-analysis of the deposited data

How the results depend on the processing

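The alternatives were a pseudocount of 5 RPM, no filter, a filter of 50 RPM, which kept miR-1839-5p and miR-1843a-5p alone of the 6 arms, only the compared groups in the fit, size factors, no trend, voom on implied reads, a replicate block and each library left out. The edgeR test was not run. The cause of the changes below was not tested.

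Calls over all tested miRNAs moved as follows. HF against LF had 1 call, but 0 with the filter of 50 RPM, 2 with size factors, 0 with only the compared groups, and 0 to 2 without 1 library. LF+Ex against LF had 0 calls, but 1 with size factors, 1 with voom, and 0 to 2 without 1 library. HF+Ex against HF had 3 calls, but 1 each with no filter, size factors, only the compared groups and no trend, and 0 to 5 without 1 library. HF+Ex against LF+Ex had 29 calls, but 18 with no filter, 59 with only the compared groups, and 2 to 16 without any 1 of its 6 libraries. The interaction had 3 calls, but 5 with no filter, 8 with size factors, 12 with only the compared groups, and 2 to 4 without 1 library.

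No arm of the 6 gained a call without 1 library. miR-1839-5p in HF+Ex against LF+Ex passed with the filter of 50 RPM (limma adjusted p = 0.0307), only the compared groups (0.0449) and voom (0.0429), within a range of 0.0307 to 0.154 over its alternatives. miR-664-5p passed with only the compared groups there (0.0449, range to 0.312) and in the interaction (0.0476, range to 0.386).

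Signs turned for differences near 0. In HF against LF, leaving out 1 library gave -0.17 to 0.093 for miR-1839-5p and -0.22 to 0.087 for miR-1843a-3p. For miR-664-3p, LF+Ex against LF was at 0.077 with size factors and -0.16 to 0.014 without 1 library, HF+Ex against HF at -0.10 with voom and -0.25 to 0.35, HF+Ex against LF+Ex at -0.015 to 0.59, and the interaction at -0.055 with size factors, -0.012 with voom and -0.17 to 0.43. miR-1843a-5p in HF+Ex against LF+Ex was at -0.21 with size factors and -0.040 to 0.044 without 1 library.

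In LF+CR minus LF, miR-1839-3p was at -0.45 with a pseudocount of 5 RPM and -1.22 with voom, and miR-1843a-5p was at 0.29 with size factors. Of the 18 described CR values, those of miR-1843a-5p changed sign in 3 or 4 alternatives each, and miR-664-5p in HF+CR minus HF in 1.

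Libraries of different groups with the same replicate number did not deviate together (mean correlation 0.03 over 45 pairs, between -0.42 and 0.61, against -0.01 over 90 pairs with other numbers). The replicate block gave 1, 0, 2, 36 and 3 calls in the 5 comparisons, in the order above. The lowest arms, miR-1839-3p and miR-664-3p, rested on few reads. Both had their lowest value, 1.42 RPM at 9 reads, in LF+CR replicate 2, a library of 6.16 megareads.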

Other observations

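Marker lists of other cell types give the setting of the arms. Epithelial miRNAs, 5 of 5 listed and none at 0, summed to 1279 to 7989 RPM in HF+CR, 980 to 1319 in HF+Ex, 1460 to 1567 in HF, 1404 to 2700 in LF+CR, 990 to 3770 in LF+Ex and 995 to 5663 in LF. Neuronal miRNAs, 3 of 3 listed, summed to 6.68 to 261 RPM in HF+CR, 5.47 to 14.3 in HF+Ex, 6.19 to 11.1 in HF, 13.9 to 29.8 in LF+CR, 8.29 to 14.6 in LF+Ex and 14.8 to 100.5 in LF, with miR-9-3p at 0 in 1 library. Erythroid miRNAs, 3 of 5 listed and none at 0, summed to 2593 to 7791 RPM over all libraries. The pancreatic list, with miR-217-5p at 0 in 4 libraries, reached 138 RPM in 1 HF+CR library. The part of these cells in the levels of the 6 arms was not tested.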
